A study of Homo sapiens with 12 samples.

Results

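*AFP*, *ALB*, *APOA1*, *APOA2*, *APOB*, *TTR*, *RBP4*, *SERPINA1* and *SPP2* encode proteins that hepatocytes release into the plasma, and they were followed here as 1 group of 9 genes among the 10976 genes measured in cerebral organoids (COs). The group was chosen with earlier results of these data known. Its genes were taken by symbol, all 9 symbols were found, and all 9 were kept whatever their values. Total RNA was sequenced in 12 libraries on day 12 and day 24 of CO culture. The embryonic stem cell line H1, of human origin, served as WT, and KO#2 and KO#10 were lines derived from H1 by CRISPR-Cas9 editing of *c-JUN*, a subunit of the AP-1 transcription factor. All 3 lines went through the same neural differentiation and CO induction and received no other agent. On each day there were 2 libraries of WT, 2 of KO#2 and 2 of KO#10, here called replicate 1 and replicate 2 after their labels. Each KO line was 1 clone, and each library held the pooled RNA of 3 to 4 COs, so that a value is an average over several COs and over all cells in them.

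Before neural tissue forms, pluripotent cells can also give rise to endoderm, and secreted carrier proteins are a hallmark of its extraembryonic branch. The visceral endoderm, which lines the yolk sac, makes alpha-fetoprotein, apolipoproteins, transthyretin and retinol-binding protein before the fetal liver takes over. The embryo depends on this supply for lipid, vitamin A and protease inhibitors. Transthyretin has a further source in the brain, the choroid plexus epithelium, which secretes it into the cerebrospinal fluid. Cerebral organoids are made to form neural tissue, and endodermal or mesodermal cells in them count as non-neural.

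The values are whole-number scores that the authors had normalized, and no read counts or depths were used here. Every library had a median of 17 and a highest value of 5585, and 9 to 10 genes of each library stood at that highest level. The column totals lay between 473637 and 483149 and reflect the normalization, so that the depth behind a value is unknown and a value of 0 says only that the gene was listed at 0. On the log2 scale, the 2 libraries of each line and day had an r across genes of 0.909 to 0.957. The libraries labelled KO did not hold less *JUN*, the gene that was edited: at day 24 WT had 13 and 15, KO#2 39 and 39, KO#10 29 and 32. The study reported no c-JUN protein in the KO lines by western blot and no *c-JUN* mRNA in KO COs by RT-qPCR. An RNA score does not measure protein, and KO below means labelled KO. The neural markers *PAX6* (34 to 112), *SOX2* (34 to 146) and *NES* (44 to 112) were present in all 12 libraries, although the labels name the tissue as embryonic stem cells.

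At day 24, 8 of the 9 genes were higher in both WT libraries than in every KO library, and *SPP2* was the opposite. Among all 9289 genes tested, 21.8% had WT above every KO library and 22.2% had WT below. The 9 scores summed to between 6621 and 6761 in WT COs and to between 42 and 1199 in KO COs at day 24, against 56 to 66 and 35 to 55 at day 12. Without *AFP*, which made up most of the sum in WT and in KO#10 replicate 1, the day 24 ranges were 1036 to 1176 and 42 to 297. The KO libraries were far from alike, and KO#10 replicate 1 held the highest of the 4 KO values for 8 of the 9 genes. In bulk RNA, fewer cells of a type and less RNA per cell cannot be told apart.

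**Figure D1:**
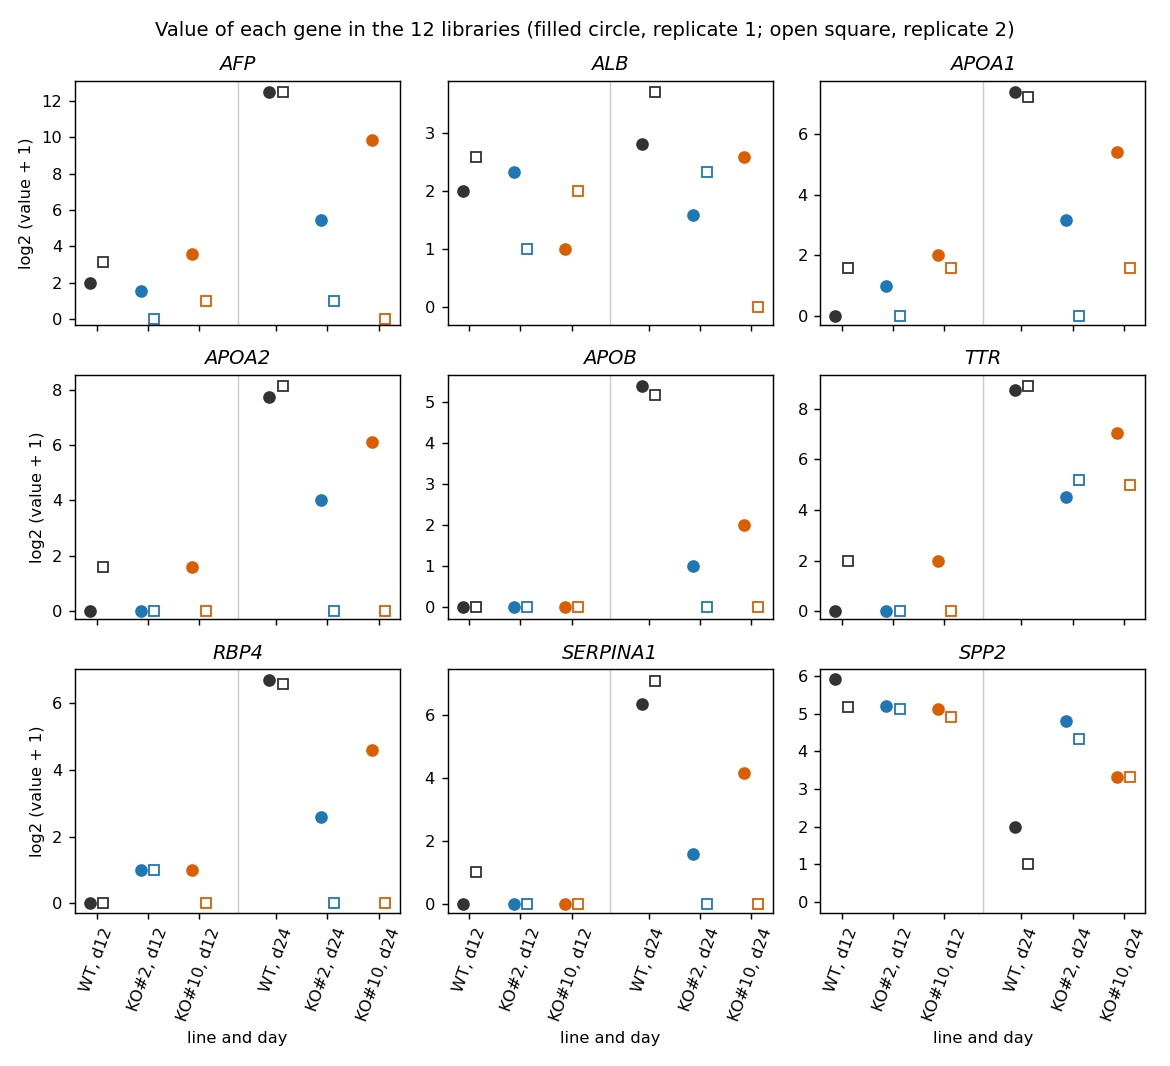
Score of each of the 9 genes in the 12 libraries, with 1 panel per gene, lines and days on the x axis and log2 (score + 1) on the y axis; each point is 1 library. Of the 9 genes, 8 sit higher in both WT day 24 libraries than in any KO day 24 library, and *SPP2* sits lower there (3 and 1) than in all others.

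*AFP* (ENSG00000081051, chromosome 4, 73431138 to 73456174, plus strand) encodes alpha-fetoprotein, the main plasma protein of the fetus and the classical marker of yolk sac endoderm. In WT COs it was 3 and 8 at day 12 and 5585 and 5585 at day 24, which is the highest level the table holds. At day 24 it was 42 and 1 in KO#2, with 902 and 0 in KO#10, after 2 and 0 in KO#2, with 11 and 1 in KO#10 at day 12. The 2 WT libraries were thus at the ceiling of the scale, while the KO libraries ranged from 0 to 902. The log2 fold change of KO against WT at day 24 was -8.39 (standard error 2.54, n = 2 and 4), but with an adjusted *p* of 0.0636 in limma *AFP* was not called. Because WT stood at the top level, which 9 to 10 genes of a library share, the fold changes and percentages of *AFP* are set against that ceiling, and the distance from WT beyond it is not known. Here a call needs a change of at least 2-fold and a *p*-value under 0.05 after Benjamini-Hochberg adjustment over all genes tested, on the scale of log2 (score + 1), which understates the change of low values.

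*ALB* (ENSG00000163631, chromosome 4, 73397114 to 73421482, plus strand), the neighbour of *AFP*, encodes albumin, the main plasma protein after birth and the usual marker of hepatocytes. Its scores stayed low in all libraries. WT COs had 3 and 5 at day 12 and 6 and 12 at day 24. KO COs had 4, 1, 1 and 3 at day 12 and 2, 4, 5 and 0 at day 24, where 4 KO values, here and in what follows, are KO#2 replicates 1 and 2 and then KO#10 replicates 1 and 2. *ALB* did not reach a score of at least 10 in at least 2 libraries and was not tested. The hepatic name of the group therefore rests on the other members, since the gene that defines hepatocytes stayed at or below 12.

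The proximal promoters show what the neighbours *AFP* and *ALB* share and where *APOA2* and *SPP2* differ from them. RefSeq promoter entries (GRCh38.p14, 250 bases before each start) matched 6 of the 9 genes, namely *AFP*, *ALB*, *APOA2*, *RBP4*, *SERPINA1* and *SPP2*. The stretches printed here run 5′ to 3′ on the strand of the gene, end where the window first meets an annotated exon, and hold the motif found in capitals. *AFP* lies at chr4:73435971-73436162 (plus strand), *ALB* at chr4:73404037-73404238 (plus strand), *APOA2* at chr1:161223632-161223878 (minus strand) and *SPP2* at chr2:234050452-234050678 (plus strand). The RefSeq starts of *AFP* and *ALB* lie inside the deposited intervals of these genes, which begin further upstream, so that their stretches fall within those intervals, while those of *APOA2* and *SPP2* lie just outside.
AFP: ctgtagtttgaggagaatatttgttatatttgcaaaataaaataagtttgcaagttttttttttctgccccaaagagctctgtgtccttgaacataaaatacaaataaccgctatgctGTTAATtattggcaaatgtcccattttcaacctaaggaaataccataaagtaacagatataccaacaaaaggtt
ALB: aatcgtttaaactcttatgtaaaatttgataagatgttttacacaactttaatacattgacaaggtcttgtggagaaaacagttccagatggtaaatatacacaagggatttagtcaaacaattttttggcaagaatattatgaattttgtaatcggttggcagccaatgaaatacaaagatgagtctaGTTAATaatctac
APOA2: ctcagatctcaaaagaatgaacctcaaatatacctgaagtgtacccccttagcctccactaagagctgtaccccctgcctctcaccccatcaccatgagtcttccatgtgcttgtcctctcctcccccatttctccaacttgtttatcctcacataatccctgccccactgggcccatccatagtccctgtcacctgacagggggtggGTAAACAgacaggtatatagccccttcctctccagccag
SPP2: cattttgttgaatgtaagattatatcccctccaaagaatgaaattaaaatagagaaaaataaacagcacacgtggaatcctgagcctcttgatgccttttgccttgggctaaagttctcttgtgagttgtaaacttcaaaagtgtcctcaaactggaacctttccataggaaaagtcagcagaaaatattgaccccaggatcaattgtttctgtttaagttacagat
The capitals in *AFP* and *ALB* are GTTAAT, the half-site of the hepatic factor HNF1, at bases -132 to -127 and -61 to -56 from the start. This motif stood in the windows of 3 of the 6 genes with an entry, the third being *SERPINA1* (bases -76 to -71 of its second start), and in 6.26% of all 34788 promoters of the table. The capitals in *APOA2* are GTAAACA, the reverse complement of the forkhead motif TGTTTAC (bases -42 to -36, 2.98% of all promoters). The AP-1 motif TGANTCA was present only in a window of *RBP4* among the 6 genes (bases -125 to -119 of its second start, 6.59% of all promoters), and TATAAA in windows of *AFP* and *RBP4* (10.8%). None of these motifs, searched on both strands, was found in the 250 bases of *SPP2*. A match in letters is a description and does not show that a factor binds there.

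The apolipoproteins are the protein part of lipoprotein particles. *APOA1* (ENSG00000118137, chromosome 11, 116835751 to 116837622, minus strand) and *APOA2* (ENSG00000158874, chromosome 1, 161222292 to 161223631, minus strand) encode the main proteins of high-density lipoprotein. *APOA1* was 167 and 149 in WT, 8 and 0 in KO#2, with 42 and 2 in KO#10 at day 24, and between 0 and 3 in the 6 libraries of day 12. *APOA2* was 212 and 278 in WT, 15 and 0 in KO#2, with 68 and 0 in KO#10 at day 24, and between 0 and 2 at day 12. For both genes WT stood above every KO library at day 24, and replicate 1 of each clone stood above replicate 2. Neither passed the threshold in KO against WT, with log2 fold changes of -4.77 for *APOA1* (standard error 1.31, limma adjusted *p* = 0.0517) and -5.40 for *APOA2* (standard error 1.72, limma adjusted *p* = 0.0705).

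*APOB* (ENSG00000084674, chromosome 2, 21001429 to 21044073, minus strand) encodes the scaffold of very-low-density lipoprotein and of chylomicrons. It was listed at 0 in all 6 libraries of day 12. At day 24 it was 41 and 35 in WT, 1 and 0 in KO#2, with 3 and 0 in KO#10. The groups did not overlap, and *APOB* was called lower in KO at a log2 fold change of -4.53 (standard error 0.68, limma adjusted *p* = 0.0196).

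*TTR* and *RBP4* encode partners in plasma, since transthyretin carries thyroid hormone and also the retinol-binding protein that *RBP4* encodes. *TTR* (ENSG00000118271, chromosome 18, 31557009 to 31598833, plus strand) was 424 and 471 in WT, 22 and 35 in KO#2, with 130 and 31 in KO#10 at day 24, after 0 to 3 in all libraries of day 12. It was the one member that was at least 22 in every KO library of day 24. *TTR* was called lower in KO, at a log2 fold change of -3.38 (standard error 0.63, limma adjusted *p* = 0.0244). The study had already named *TTR* among the genes lower in KO COs at day 24 by RNA sequencing. *RBP4* (ENSG00000138207, chromosome 10, 93591687 to 93601744, minus strand) was 102 and 94 in WT, 5 and 0 in KO#2, with 23 and 0 in KO#10, and no higher than 1 at day 12. It was called as well, with a log2 fold change of -4.84 (standard error 1.26, limma adjusted *p* = 0.0471). In KO replicate 2 libraries *TTR* thus stood at 35 and 31 while its partner was listed at 0.

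*SERPINA1* (ENSG00000197249, chromosome 14, 94376747 to 94390693, minus strand) encodes alpha-1 antitrypsin, an inhibitor of neutrophil elastase. It was 81 and 136 in WT, 2 and 0 in KO#2, with 17 and 0 in KO#10 at day 24, and 0 in the libraries of day 12 except for 1 in replicate 2 of WT. It was called lower in KO at a log2 fold change of -5.29 (standard error 1.14, limma adjusted *p* = 0.0318).

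*SPP2* (ENSG00000072080, chromosome 2, 234050679 to 234077134, plus strand) encodes secreted phosphoprotein 2, a protein of plasma and bone matrix. Its course was the reverse of the others. At day 12 it was 60 and 35 in WT, 36 and 34 in KO#2, with 34 and 29 in KO#10. At day 24 it was 3 and 1 in WT, 27 and 19 in KO#2, with 9 and 9 in KO#10. WT therefore stood below every KO library at day 24, and *SPP2* was called higher in KO at a log2 fold change of 2.44 (standard error 0.52, limma adjusted *p* = 0.0309).

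In all, 8 of the 9 genes were tested in KO against WT at day 24, of which 4 were called lower (*APOB*, *TTR*, *RBP4* and *SERPINA1*) and 1 higher (*SPP2*). Among all genes tested, 3.79% were called lower and 4.22% higher. The median log2 fold change of the 8 genes was -4.80, beside 0.01 over all genes. *APOA1*, *APOB*, *RBP4* and *SERPINA1* passed the filter on low values through their WT level and *SPP2* through its level in KO, so that these counts describe the genes that passed. For 1 gene, an exact permutation of 2 against 4 libraries cannot reach a *p* below 0.0667. The calls depended on single libraries. Without KO#10 replicate 1, all 8 were called, as were 1346 of all genes tested, against 744 with no library left out. The limma adjusted *p* of the 8 lay between 0.00219 for *TTR* and 0.016 for *SPP2*. *AFP* reached a log2 fold change of -10.31 (adjusted *p* = 0.00894). Without KO#2 replicate 1, *APOB* alone of the members was called (limma adjusted *p* = 0.0428), beside 263 of all genes. Without KO#2 replicate 2 or KO#10 replicate 2, limma called no member, where it called 15 and 23 of all genes. Of the members, 7 and 8 had an unadjusted *p* under 0.05 in these limma fits. The count over all genes at that threshold is given only for the fit with no library left out, 3509 of 9289. With a WT replicate left out, 1 WT library remained. The log2 fold change of *TTR* was then -3.45 without WT replicate 1 and -3.30 without WT replicate 2. The direction of each gene was the same in every one of these fits in which it was tested.

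**Figure D2:**
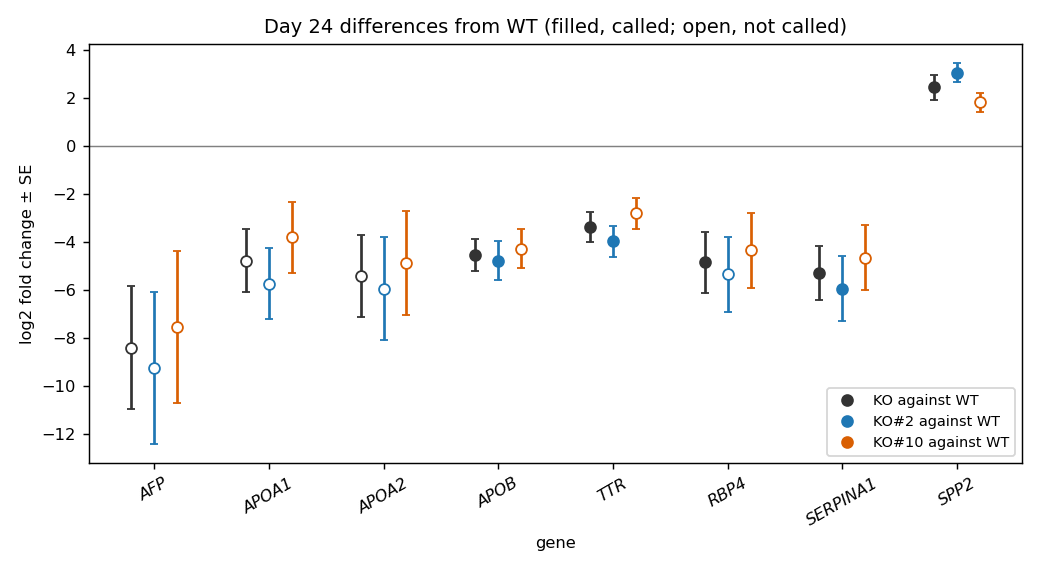
Log2 fold change of KO against WT at day 24 for the 8 members tested, for both clones together and for KO#2 and KO#10 each, on the log2 (score + 1) scale; bars are standard errors and filled symbols mark genes called by limma. The values of both clones together run from -8.39 for *AFP* to 2.44 for *SPP2*, and no symbol of KO#10 is filled.

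The clones were then set against WT one at a time, with the same WT libraries in both comparisons, so that they are not independent. In KO#2 against WT, *APOB* (log2 fold change -4.78, limma adjusted *p* = 0.0353), *TTR* (-3.96, 0.0344) and *SERPINA1* (-5.94, 0.0463) were called lower and *SPP2* (3.06, 0.0301) higher, where 4.27% of all genes were called lower and 4.76% higher. In KO#10 against WT limma called none of the members, where it called 0.14% of all genes in each direction. An unadjusted *p* under 0.05 was reached by 6 members and by 2255 of all 9289 genes tested. The KO#10 values were -7.54 for *AFP*, -2.79 for *TTR* and 1.82 for *SPP2*, beside -9.23, -3.96 and 3.06 in KO#2. In the direct test of KO#10 against KO#2, limma called 0 of 9289 genes, 479 of which had an unadjusted *p* under 0.05. *SPP2* was the member among these, with a log2 difference of -1.24 (unadjusted *p* = 0.0208, adjusted *p* = 0.825 in limma). A difference between the clones in these genes was not detected with 2 libraries of each, which does not show that they were alike.

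Libraries of the same clone differed from each other. At day 24, replicate 1 stood above replicate 2 for 7 of the 9 genes in KO#2 and for 8 in KO#10, where *SPP2* was 9 in both. Over all genes, the shares with replicate 1 above replicate 2 were 42.9% in KO#2 and 43.5% in KO#10. KO#10 replicate 1 was the highest KO library for every member but *SPP2*, while 27.1% of all genes had their highest KO value there alone. As a percentage of the WT mean, that library held 16.2% for *AFP*, whose WT values are at the ceiling, and 26.6% for *APOA1*, 27.8% for *APOA2*, 29.1% for *TTR*, 23.5% for *RBP4*, 15.7% for *SERPINA1* and 7.89% for *APOB*. KO#2 replicate 1 held 0.752% for *AFP*, 1.84% for *SERPINA1* and 2.63% for *APOB*, and between 4.92% and 6.12% for *TTR*, *APOA1*, *RBP4* and *APOA2*. The ratio of KO#10 replicate 1 to KO#2 replicate 1 was 4.53 for *APOA2*, 4.6 for *RBP4*, 5.25 for *APOA1* and 5.91 for *TTR*, but 8.5 for *SERPINA1* and 21.5 for *AFP*. The members therefore did not keep 1 ratio between these libraries.

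In the replicate 2 libraries most of these genes were near the bottom of the scale. *AFP*, *APOA1*, *APOA2*, *APOB*, *RBP4* and *SERPINA1* were no higher than 2 in either of them, although each was at least 35 in WT. Of the 9 members, 5 were listed at 0 in KO#2 replicate 2 and 6 in KO#10 replicate 2, and none in the replicate 1 libraries of the KO clones. *TTR* went against this pattern, with 7.82% of the WT mean in KO#2 replicate 2 and 6.93% in KO#10 replicate 2, above its 4.92% in KO#2 replicate 1. The log2 range over the 4 KO libraries was 9.82 for *AFP*, the widest of all 10976 genes, and 6.11 for *APOA2*, 5.43 for *APOA1*, 2.51 for *TTR* and 1.49 for *SPP2*. Its median was 4.17 over the 9 members and 0.53 over all genes, and 2.32 over the members with a pseudocount of 5.

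**Figure D3:**
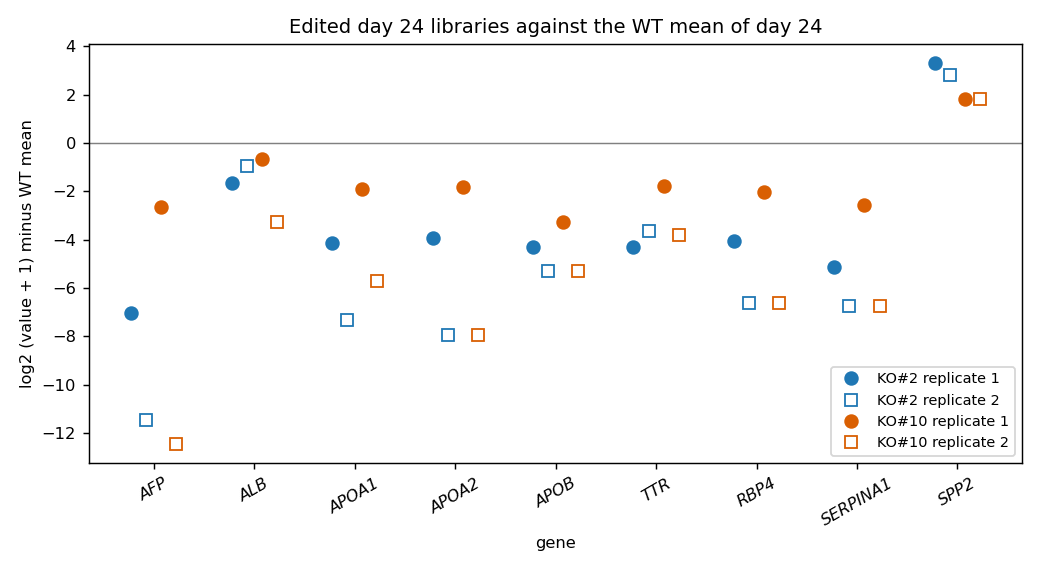
Log2 (score + 1) of the 9 members minus the WT mean of day 24, with genes on the x axis and 1 symbol for each of the 4 KO libraries. KO#10 replicate 1 lies above the other KO libraries for every gene but *SPP2*, and the scores behind the symbols of *AFP* run from 0 to 902.

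At day 12 none of the genes other than *SPP2* exceeded 11 in any library, 7 of the 9 members were at 5 or under in all 6 libraries, and *SPP2* was the only member tested in KO against WT. Its log2 fold change then was -0.46 (standard error 0.21, limma adjusted *p* = 0.49), where 0.0225% of all genes were called higher and 0.0675% lower. In WT COs, all 8 members tested were called between the days, 7 higher at day 24 and *SPP2* lower, where 7.23% of all genes were called higher and 7.94% lower. The log2 fold changes were 9.86 for *AFP* (standard error 2.36, limma adjusted *p* = 0.00964), 7.81 for *TTR* (adjusted *p* = 0.000257) and -4.05 for *SPP2* (adjusted *p* = 0.000317). No fold is given for *APOB* and *RBP4*, which were listed at 0 in both WT libraries of day 12. *AFP* and *APOA2* lost the call without WT day 12 replicate 1 (adjusted *p* = 0.0681 and 0.0641) and without WT day 24 replicate 2 (0.0544 and 0.0531).

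In KO COs only *TTR* and *SPP2* were called between the days, where 5.89% of all genes were called higher at day 24 and 5.59% lower. *TTR* rose by a log2 fold change of 4.93 (standard error 0.60, limma adjusted *p* = 0.000132), and it stayed called under each of the 18 other settings tried. *SPP2* fell by 1.15 on the log2 scale (standard error 0.33, adjusted *p* = 0.0168), and lost the call without KO#10 day 24 replicate 1 (change of -0.94) or replicate 2 (adjusted *p* = 0.0523). The other 6 members tested did not pass, with *AFP* at 2.52 (adjusted *p* = 0.25) and *APOA2* at 2.13 (adjusted *p* = 0.156). The difference between the genotypes in this change was tested as an interaction over the 12 libraries, in which 0.854% of all genes were called lower and 0.452% higher. *SPP2* was called, at 2.90 (standard error 0.57, limma adjusted *p* = 0.0367). The interaction was negative for the other 7, between -7.34 for *AFP* (adjusted *p* = 0.171) and -2.88 for *TTR* (0.144), and none of these was called. All 7 had an unadjusted limma *p* under 0.05, as had 2136 of all 9952 genes tested. With the replicate number as a block, *RBP4* (adjusted *p* = 0.0329) and *APOB* (0.039) were called besides *SPP2*. *SPP2* lost its call without any single library of day 12, without WT day 24 replicate 2 and without KO#2 day 24 replicate 2 (adjusted *p* between 0.0583 and 0.189). Without KO#10 day 24 replicate 1, all 8 members were called, in a fit whose count over all genes is not given here.

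Among other plasma proteins and apolipoproteins of liver and yolk sac, the genes called at day 24 were lower in KO. Of 35 genes in this list, 17 were measured and 13 tested at day 24, and 7 were called lower in KO and 0 higher, with a median log2 fold change of -3.26. Of the 13, 9 passed the filter on low values only with their WT libraries, so that the direction of this count and median is partly set by the filter. Over all genes tested, 3.79% were called lower and 4.22% higher, and the median was 0.01. The fibrinogen chain *FGB* was 750 and 426 in WT, 10 and 0 in KO#2, with 112 and 0 in KO#10, and was not called (adjusted *p* = 0.0545), while the chain *FGA* was (-3.99, adjusted *p* = 0.0448). Among the apolipoproteins, *APOC1* was 85 and 80 in WT and 2, 2, 18 and 3 in KO (-4.03, limma adjusted *p* = 0.0235), *APOA4* 17 and 28 against 0, 0, 7 and 0, and *APOE* 114 and 206 against 20, 16, 58 and 20 (-2.58, adjusted *p* = 0.027). *AGT*, which encodes angiotensinogen, was 25 and 22 in WT and 1, 1, 5 and 1 in KO. *VTN*, which encodes vitronectin, was 31 and 31 against 3, 0, 10 and 3. As with the members, KO#10 replicate 1 was the highest KO library for 14 of the 17.

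Genes that act around the members were called in both directions. Of the 11 genes tested for lipoprotein assembly and uptake, *MTTP*, which loads lipid onto apolipoprotein B, was the only gene called, at 19 and 20 in WT and 7, 4, 8 and 4 in KO (-1.65, limma adjusted *p* = 0.0242). The list's median was -0.17. Of the 13 genes tested for the carriage and metabolism of retinol and thyroid hormone, 2 were called lower and 2 higher, beside the 3.79% and 4.22% of all genes. The lower ones were *DIO3*, which inactivates thyroid hormone (23 and 25 in WT, 6, 2, 3 and 0 in KO, adjusted *p* = 0.0386), and *CYP26A1*, which degrades retinoic acid (12 and 17 against 1, 1, 2 and 1, adjusted *p* = 0.0248). The higher ones were *RDH10*, which oxidizes retinol (7 and 7 against 15, 30, 34 and 36, adjusted *p* = 0.0241), and the thyroid hormone receptor *THRA* (13 and 10 against 23, 24, 23 and 26, adjusted *p* = 0.0196). *MTTP*, *DIO3* and *CYP26A1* passed the filter on low values only with their WT libraries, and *RDH10* only with its KO libraries. The direction of these calls is therefore partly set by the filter.

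The transcription factors that define the endoderm were covered only in part. Of 22 such factors 6 were measured and 4 tested, and *SOX17*, *FOXA2*, *GATA4* and *GATA6* were not analysed here. *HNF4A*, the nuclear receptor of hepatocytes and visceral endoderm, was 17 and 17 in WT, 0 and 0 in KO#2, with 2 and 0 in KO#10 at day 24, and no higher than 1 at day 12. It was called lower in KO (-3.77, standard error 0.90, limma adjusted *p* = 0.0382), as was *ELF3*, an epithelial factor (-2.33, adjusted *p* = 0.0298). The other 2 factors tested were not called, with *EOMES* at 1.47 (1 and 7 in WT, 13, 17, 2 and 19 in KO, adjusted *p* = 0.255) and *ZBTB20* at 0.72 (adjusted *p* = 0.0782). The median of the 4 was -0.81. *HNF4A* and *ELF3* passed the filter on low values only with their WT libraries, and *EOMES* and *ZBTB20* only with their KO libraries. The directions and the median of these 4 are thus partly set by the filter. Of the 13 tested markers of visceral endoderm and yolk sac, 9 were called lower in KO and 0 higher, beside 3.79% and 4.22% of all genes. Their median was -3.10, and 7 of the 13 passed the filter only with their WT libraries. The 6 with the largest change among those called also mark other cells. They were the pluripotency marker *TDGF1* (-5.64), the epithelial genes *S100A14* (-4.56), *EPCAM* (-4.44), *CDH1* (-3.71) and *KRT19* (-3.30), and *FN1* (-3.10), which encodes the matrix protein fibronectin.

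Markers of other cell types also differed between the groups, and their part in the result was not tested. Of the embryonic globins, which red cells of the yolk sac make, *HBE1* was 31 and 29 in WT and 0, 0, 1 and 0 in KO at day 24, and *HBG2* was 31 and 18 in WT and listed at 0 in all 4 KO libraries. Both were at 0 at day 12, and *HBG2* may share reads with a near-identical copy. Pluripotency genes summed to between 528 and 1100 in WT and 77 and 108 in KO at day 24, and 7 of 8 tested were called lower. Neuronal genes summed to between 193 and 358 in WT and 445 and 2117 in KO, and 4 of 11 tested were called higher. Mesenchymal genes summed to between 2124 and 2507 in WT and 150 and 2959 in KO, and 1 of 9 tested was called (*ACTA2*, lower, limma adjusted *p* = 0.0353). Over all genes tested, 3.79% were called lower and 4.22% higher. Only with their WT libraries did 3 of the 8 pluripotency genes, 4 of the 9 mesenchymal genes and the 2 globins pass the filter on low values. Only with KO libraries did 5 of the 11 neuronal genes and 1 mesenchymal gene pass it. The direction of these counts is therefore partly set by the filter.

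These lists differed in where KO#10 replicate 1 lay. The median log2 difference from WT of the tested members was -4.21 in KO#2 replicate 1, -6.68 in KO#2 replicate 2, -1.96 in KO#10 replicate 1 and -6.18 in KO#10 replicate 2. For the mesenchymal genes it was 0.31 in KO#10 replicate 1 and between -2.29 and -1.86 in the other KO libraries, and 7 of the 10 measured were above both WT libraries there. The collagen gene *COL3A1* was 1009 in KO#10 replicate 1, beside 903 and 821 in WT and 60, 31 and 28 in the other KO libraries. For the pluripotency genes the medians were between -3.27 and -2.75 in all 4 KO libraries, with no rise in KO#10 replicate 1. Among the neuronal genes, that library had the lowest median, 0.48 against 1.80 to 2.33.

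**Figure D4:**
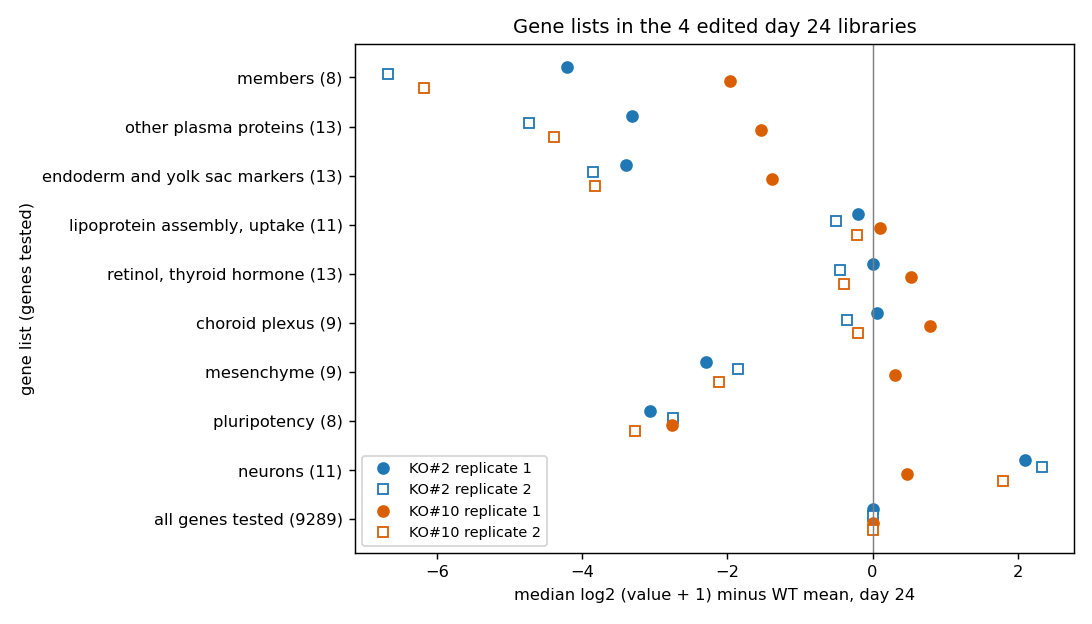
Median log2 difference from the WT mean at day 24, on the log2 (score + 1) scale, for the tested genes of each list (rows) in each of the 4 KO libraries (symbols). KO#10 replicate 1 lies nearest to WT for the members (-1.96) and crosses it for the mesenchymal genes (0.31), while the 4 libraries lie together for the pluripotency genes (-3.27 to -2.75).

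*TTR* has a source in the choroid plexus, so that markers of this epithelium were read beside it. *AQP1*, which encodes its water channel, was 33 and 21 in WT, 2 and 1 in KO#2, with 12 and 1 in KO#10 at day 24 and was called lower in KO (-2.95, limma adjusted *p* = 0.0476). *KCNJ13*, a potassium channel gene of the same epithelium, was 10 to 11 in WT and 8 to 14 in KO. *RSPO2* and *WNT2B*, signalling genes of the cortical hem and choroid plexus, were called higher in KO, and *RSPO2* was 6 and 7 in WT and 15, 60, 142 and 67 in KO. Of the 9 genes of the list that were tested, 3 passed the filter on low values only with WT libraries and 5 only with KO libraries. The direction of the calls among them is therefore partly set by the filter. The 11 measured genes of the list summed to between 154 and 181 in WT and 92 and 394 in KO. *FOLR1* and *CLIC6* were not analysed here, and the part of the choroid plexus in the *TTR* values was not tested.

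The members tested were compared with their own mean pattern, the mean of their standardized log2 scores over the 12 libraries. Pearson's r with this mean lay between 0.962 and 0.994 for *AFP*, *APOA1*, *APOA2*, *APOB*, *RBP4* and *SERPINA1*, was 0.857 for *TTR* and -0.842 for *SPP2*. Of all other genes that passed the filter, the 5 most like this mean were *HAND1* (r = 0.990), *FGB* (0.986), *GSTA1* (0.985), *FGA* (0.983) and *GSTA2* (0.982). *HAND1*, a transcription factor of extraembryonic mesoderm and heart, was listed at 0 in all libraries of day 12 and was 70 and 67 in WT, 4 and 0 in KO#2, with 25 and 0 in KO#10 at day 24. *GSTA1* and *GSTA2*, glutathione transferases of liver, are near-identical copies whose reads may be shared. These correlations are descriptions over 12 libraries, and the 2 WT libraries of day 24 hold the extreme values of each of these genes.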

How the data were processed

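RNA of 12 libraries of COs was sequenced after depletion of ribosomal RNA with a strand-specific kit. For each gene and library the authors deposited a score without decimals, and its median and highest value, the same in all libraries, show a normalization to a common distribution. Its method is not given in the sources used here, nor is the use of strand in counting. The submitters' processing notes name bcl2fastq, Bowtie2 and RSEM and the mouse build mm10, yet all 10976 gene identifiers are human and in GENCODE 29 (GRCh38), and 10975 intervals overlap that annotation (3940 are equal). Coordinates are printed as deposited.

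The labels gave the line, day and replicate number of each library. Nothing says that replicates came from separate cultures, so that *p*-values measure the spread between libraries. Scores were transformed as log2 (score + 1), and genes that reached 10 in 2 or more of the libraries compared entered lmFit and eBayes, with a variance trend (limma 3.58.1, R 4.3.3) and adjusted by the Benjamini-Hochberg method over all genes tested. The 2 genotypes were compared within each day, each clone against WT in a fit of 3 groups at day 24, and the day changes and the interaction over all 12 libraries. The same tests were also run on simulated data with known changes. The changed genes there lay well above the bottom of the scale and had normal noise. Most members were near the bottom in KO libraries, so that the simulation does not bear on their calls.

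The members, the gene lists and the tests were chosen with earlier results of these data known. Named were all 9 members, from each list up to 6 called genes by size of change, defining markers, and the 5 genes most like the mean of the members. *FGB*, *COL3A1*, *KCNJ13*, *EOMES*, *ZBTB20* and the neural markers were named after their values were seen or as markers. Replicate numbers paired the libraries at day 12, where libraries of the same number deviated together from their group means (r of 0.428 to 0.598 across genes). Promoters are those of RefSeq (GRCh38.p14). Alternatives were other filters, pseudocounts of 0.1 and 5, no trend, the replicate block, all 12 libraries in 1 fit, separate clones, unadjusted *p* and each library left out. Python 3.11.15, pandas 2.3.3, numpy 2.4.6 and matplotlib 3.10.9 were used.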

Additional observations from a re-analysis of the deposited data

Results flagged for a closer look

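In groups of 4 KO libraries, a library was looked at again when it lay far from the other 3 relative to the range of the group. KO#10 replicate 1 of day 24 stood apart in this way for *AFP* (902), *TTR* (130) and *SERPINA1* (17), where the other KO libraries reached 42, 35 and 2. At day 12, KO#10 replicate 1 stood apart for *APOA2* (2) and *TTR* (3), with the other KO libraries at 0, and KO#10 replicate 2 for *RBP4* (0), with the others at 1. These day 12 values are steps of a few units on a whole-number scale. The rule was applied to the scores and not on the log2 scale. Its chance rate of about 1 in 20 groups holds for normally distributed values, and for these skewed scores the rate is not known. The effect of the genotype on *SPP2* differed between the days by 2.90 on the log2 scale, tested as an interaction in limma (adjusted *p* = 0.0367, and between 0.00586 and 0.189 under the alternatives).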

How the results depend on the processing

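The depth behind the scores is unknown and the scale ends at 5585, where *AFP* stood in both WT libraries of day 24. In KO against WT at day 24, 5 members were called, against 2 with a pseudocount of 0.1 and 8 each with a pseudocount of 5, the replicate block, all 12 libraries in 1 fit or an unadjusted *p*, and 0 to 8 with a library left out. *RBP4* lost its call with no filter (adjusted *p* = 0.0556), without the trend (0.0534) and with separate clones (0.0648). Over all genes, 744 were called, against 746 with a pseudocount of 0.1, 552 with a pseudocount of 5 and 661 with the replicate block. The number was 1118 with all 12 libraries in 1 fit, 1083 with an unadjusted *p* and 15 to 1346 with a KO library left out. For the interaction, 1 member was called, against 2 with no filter, a minimum of 5 or no trend, 6 with a pseudocount of 5, 3 with the replicate block (*SPP2*, *RBP4* and *APOB*), and 0 to 8 with a library left out (all genes: 130, and 368 with the block). Between the days, 8 members were called in WT (5 to 8 with a library left out) and 2 in KO (1 with a pseudocount of 5, and 1 to 3 with a library left out). In KO#2 against WT, 4 were called (0 to 5 with a library left out), and in KO#10 against WT 0 (1 with a pseudocount of 5). The median log2 range over the KO libraries fell from 4.17 to 2.32 with a pseudocount of 5. With a library left out, the sign of KO#10 against KO#2 turned for *AFP* (-3.21 to 6.61), *APOA2* (-2.00 to 4.11), *RBP4* (-1.29 to 3.29), *SERPINA1* (-0.79 to 3.38) and *APOB* (-0.50 to 1.5). The cause of these changes was not tested. *APOB* could not be tested without a WT library of day 24, nor *SPP2* without a KO#2 library in the fits of day 24, because of the filter. At day 24, libraries with the same replicate number did not deviate together in all pairs of lines (r of 0.212, -0.106 and 0.346), so that the block has no support from the labels there. At day 12 the block changed no call of a member.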
